A study of Mus musculus with 18 samples.

Results

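The genes described here encode 7 enzyme families that handle foreign chemicals and reactive metabolites in the lung: cytochromes P450, flavin monooxygenases, aldehyde dehydrogenases, carboxylesterases, epoxide hydrolases, glutathione transferases and sulfotransferases. They were chosen by gene symbol, with earlier results of these data known. Rows named Cyp, Fmo, Aldh, Ces, Ephx, Sult or Gst of the m, p, t, o, z or k classes were taken. Of 80 such rows, 7 were set aside (Cyp2f2, Cyp1a1, Cyp1b1, Cyp26b1, Aldh3a1, Aldh1a1 and Aldh1a2), which left 73 of the 13384 genes in the mRNA table. They comprised 23 cytochromes P450, 17 glutathione transferases, 13 aldehyde dehydrogenases, 6 flavin monooxygenases, 6 carboxylesterases, 4 sulfotransferases and 4 epoxide hydrolases. Messenger RNA of mouse lung was sequenced in 9 libraries, in 3 groups of 3. Control mice received phosphate-buffered saline (PBS). The COPD model, standing for chronic obstructive pulmonary disease, combined cigarette smoke inhalation with smoke extract injected into the peritoneum, and these mice also received PBS. In the BMSC-treated group, model mice were injected with 4000000 BMSCs, which the series title calls mesenchymal stem cells, in 100 µl of PBS through the tail vein. The sources used here give no strain, sex, age or time of sampling. They also do not say that libraries are from different animals, so the spread of these samples may be technical. The p-values and standard errors (SE) below come from limma, which draws each gene's spread toward that of genes of similar level. They thus do not measure the spread of a single gene alone.

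Phase I enzymes introduce or unmask a reactive group. Cytochromes P450 and flavin monooxygenases oxidise a substrate with electrons from NADPH, carboxylesterases cleave esters and amides, epoxide hydrolases open epoxides to diols, and aldehyde dehydrogenases turn aldehydes into acids. Phase II enzymes attach a soluble group, glutathione in the case of glutathione transferases and sulfate in the case of sulfotransferases. In the mouse lung, club cells of the airway are known for a high content of these enzymes, and tobacco smoke supplies many of their substrates.

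Values are FPKM (fragments per kilobase of transcript, scaled to the mapped fragments of a library), which can be compared between genes and whose sequencing depth is unknown. A pair of libraries stood apart from the rest: in control 1 and BMSC-treated 1, mitochondrial transcripts held 89.3% and 92.2% of all FPKM, against 23.9% to 70.8% in the other 7, and 14 and 13 of the 73 enzyme genes were listed at 0, against 0 to 2. Because FPKM is relative to the whole library, levels were also rescaled to make library sums equal once Scgb1a1, the club cell secretory protein, and the mitochondrial genes were set aside. Rescaling and leaving out these libraries together, called "both steps" here, was added after the data were seen. As a check of the tissue label, the alveolar type 2 cell marker Sftpc stood at 614 to 3249 FPKM, and 9 of 9 club cell markers were above 0 in all libraries. Markers of hepatocytes, the other cell type rich in these enzymes, summed to 0.915 to 18.6 FPKM, with Apob, Fgb, Serpina1a and Serpina1c not listed and Alb at 0.155 to 3.72. These markers include Cyp2e1, itself among the 73 genes, which gave 13.1 of the 18.6 FPKM in BMSC-treated 3.

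Many of these genes are neighbours. In the RefSeq annotation of GRCm38.p6 (mm10), 34 of the 73 lay in 7 groups of 3 or more with no more than 1000000 bases between neighbours. They were the Fmo genes of chromosome 1, the Gstm genes of chromosome 3, Cyp2s1, Cyp2b10, Cyp2a4 and Cyp2a5 on chromosome 7, the Ces1 genes of chromosome 8, the Gstt genes of chromosome 10, Ephx3 with Cyp4f genes on chromosome 17, and Aldh3b1 with the Gstp genes on chromosome 19. Members of the same family within such a group can be similar in sequence. The division of reads between, for example, Cyp2a4 and Cyp2a5, Gstp1 and Gstp2, or Gstm1 and Gstm2 is thus uncertain. The 5 Ces1 genes (chr8:93056725-93337209) include Ces1g (chr8:93302369-93337209) and Ces1e (chr8:93201218-93229631), which were among the 5 members of smallest p both in the COPD model against control and in BMSC-treated against COPD model. Their promoters are shown beside those of Cyp2b10, a cytochrome P450 known as a target of the xenobiotic receptor CAR, and Gstp1, the pi-class glutathione transferase. These 4 were picked after the values were seen. Each is the 250 bases upstream of a RefSeq start, 5′ to 3′ on the strand of the gene, and capitals mark TATAA, known from core promoters, and GCGTG, the core of the xenobiotic response element bound by the aryl hydrocarbon receptor, on either strand.
Ces1e, chr8:93229620-93229869, minus strand: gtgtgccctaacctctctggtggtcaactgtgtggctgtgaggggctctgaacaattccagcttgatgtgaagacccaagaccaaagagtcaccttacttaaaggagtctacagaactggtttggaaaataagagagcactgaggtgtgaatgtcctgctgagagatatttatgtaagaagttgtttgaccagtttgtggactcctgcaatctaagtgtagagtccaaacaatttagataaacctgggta
Ces1g, chr8:93337210-93337459, minus strand: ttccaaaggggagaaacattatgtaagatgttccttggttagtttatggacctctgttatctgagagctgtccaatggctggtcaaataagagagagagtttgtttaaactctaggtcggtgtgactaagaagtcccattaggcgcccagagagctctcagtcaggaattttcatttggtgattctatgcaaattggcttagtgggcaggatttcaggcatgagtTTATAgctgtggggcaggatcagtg
Cyp2b10, chr7:25897408-25897657, plus strand: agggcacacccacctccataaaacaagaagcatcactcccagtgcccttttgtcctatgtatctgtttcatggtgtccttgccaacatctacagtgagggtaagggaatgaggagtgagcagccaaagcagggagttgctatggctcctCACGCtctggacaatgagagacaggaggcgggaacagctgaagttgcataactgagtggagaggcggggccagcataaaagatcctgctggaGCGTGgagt
Gstp1, chr19:4037913-4038162, minus strand: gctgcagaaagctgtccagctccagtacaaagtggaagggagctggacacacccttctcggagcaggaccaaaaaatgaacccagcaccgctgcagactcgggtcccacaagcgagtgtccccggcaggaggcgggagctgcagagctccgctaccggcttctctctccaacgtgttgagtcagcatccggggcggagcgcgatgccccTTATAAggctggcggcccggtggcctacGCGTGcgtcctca
In Cyp2b10 the GCGTG core began 101 and 9 bases upstream of the start, and in Gstp1 it began 13 bases upstream. The TATAA core began 25 bases upstream in Ces1g, on the opposite strand, and at 41 and 40 bases in Gstp1, as overlapping matches on both strands. Over the 72 promoters that RefSeq lists for 60 of the 73 genes, GCGTG was found in 17 (23.6%), against 28.2% of all 32851 promoters of the same length. The 7 rows set aside, Cyp1a1 and Cyp1b1 among them, are not counted among the 72. TGACNNNGC, a form of the core of the antioxidant response element, was found in 4 of the 72 (5.56%), against 10.2% of all. Other forms of this core, and bases beyond these 250, were not searched. Lack of such elements in Gstp1 or other members thus cannot be read from this count. TATAA was found in 18 (25%), against 22.8%. The promoters of Ces1e and Ces1g were identical at 50.5% of aligned positions, and the other pairs of these 4 at 47.5% to 51.0%.

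The enzyme genes ranged over several orders of magnitude in level. By mean over the 9 libraries, Gstm1 was the most abundant at 236.8 FPKM, followed by Ces1d at 210.6, Gstp1 at 135.0, Gsto1 at 123.8, Cyp4b1 at 120.9 and Cyp2a5 at 100.9. Within families a few genes dominated. Ces1d held 87.8% to 93.1% of the carboxylesterase FPKM in every library, and Ephx1 held 88.9% to 97.8% of the epoxide hydrolase FPKM. The make-up of the P450 and flavin monooxygenase families differed more between libraries: Cyp2a5 held 0% to 52.8% of the P450 FPKM, and Fmo1 held 8.62% to 52.1% of the flavin monooxygenase FPKM. Together the 73 genes summed to 397, 1649 and 2478 FPKM in control libraries 1 to 3, to 2313, 2852 and 2853 in the COPD model and to 304, 1362 and 2442 in BMSC-treated libraries. The heat map of members by library shows the low columns of control 1 and BMSC-treated 1.

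Family sums per library show the same split. The carboxylesterases summed to 39.1, 152 and 354 FPKM in control, 303, 427 and 446 FPKM in COPD model and 24.2, 142 and 241 FPKM in BMSC-treated libraries. Aldehyde dehydrogenases summed to 41.6, 217 and 355 FPKM, to 313, 417 and 409 FPKM and to 36.8, 149 and 221 FPKM in the same order. Epoxide hydrolases, of lower level, summed to 7.48, 59.0 and 106 FPKM, to 97.7, 126 and 148 FPKM and to 8.37, 60.97 and 80.5 FPKM. In these 3 families, every BMSC-treated library lay below every COPD model library, and the highest control library overlapped the COPD model. After rescaling, the carboxylesterases were at 92.7, 160 and 295 in control, 232, 332 and 318 in the COPD model and 81.4, 163 and 191 in BMSC-treated libraries. The aldehyde dehydrogenases were then at 98.8, 229 and 296, at 239, 324 and 292, and at 124, 170.5 and 175 rescaled FPKM, and the epoxide hydrolases at 17.8, 62.1 and 88.6, at 74.6, 97.95 and 105.5, and at 28.2, 69.9 and 63.7. All 3 families still had every BMSC-treated library below every COPD model library. Glutathione transferases, the family of highest sum, were at 193, 659 and 953 FPKM in control, 879, 958 and 941 in the COPD model and 158, 549 and 984 in BMSC-treated libraries, so that all groups overlapped. P450 sums reached their highest value, 645 FPKM, in BMSC-treated 3.

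**Figure D1:**
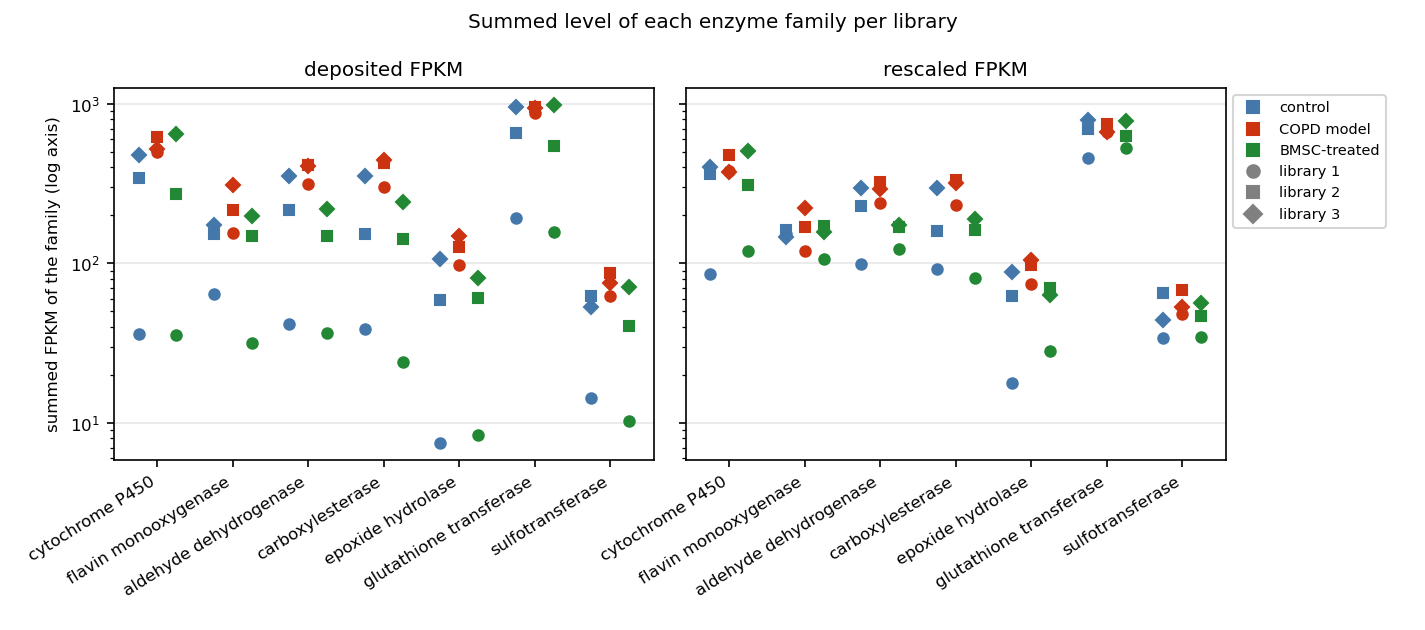
Summed level of each family in each library, as deposited FPKM (left) and rescaled as described (right), on log axes; colour marks the group and shape the library number. On the left control 1 and BMSC-treated 1 lie below the other 7 libraries in all 7 families, and on both sides the BMSC-treated carboxylesterase, aldehyde dehydrogenase and epoxide hydrolase sums lie below those of the COPD model.

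The first comparison set the COPD model against control. Of the 68 members tested, 65 had a positive change, and the median change was 0.91 on the log2(FPKM + 1) scale. On this scale, as for all changes below, low genes show less than their full change. Over all 11765 genes tested the median was 0.66, so the members' median lay 0.26 above it. None of the 68 members passed a Benjamini-Hochberg adjusted p of 0.05 in limma, and their smallest adjusted p was 0.514, while 0.0765% of all genes passed. A p above the threshold does not show that values did not differ. At an unadjusted limma p under 0.05, 14 of the 68 members were higher and 0 lower, where 6.36% of all genes tested were higher and 0.229% lower. In 13 members all COPD model libraries lay above all control libraries, against 23.7% of all genes, and in 0 members all lay below, against 0.314%. After rescaling this held for 4 members (Ces1g, Gstp2, Cyp4f13 and Gstm2, of which the last 3 are named after their values were seen), against 7.09% of all genes, and 0 members lay below without overlap, against 3.9%. At an unadjusted p under 0.05, 2 members were then higher, against 2.76% of all genes, and 1 lower, against 1.72%. The members' median was 0.44 after rescaling (all genes 0.14), 0.36 without control 1 and BMSC-treated 1 (all genes 0.30), and 0.10 with both steps (all genes 0.05). In bulk tissue, fewer cells of a type and less RNA per cell cannot be told apart.

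The second comparison set BMSC-treated against COPD model lungs. A negative change was found in 64 of the 68 members, with a median of -0.95 against -0.75 over all genes. No member passed the adjusted threshold in limma, where 0.127% of all genes did, and the smallest adjusted p among members was 0.237. At an unadjusted limma p under 0.05, 19 members were lower and 0 higher, against 10.8% of all genes lower and 0.306% higher. Groups that did not overlap, with BMSC-treated below COPD model, were found in 28 of the 68 members, where 31% of all genes did so, and 0 members lay higher without overlap, against 0.272%. After rescaling they were 20 members, against 14.2% of all genes, and 2 members lay higher without overlap (Cyp4f18 and, named after its values were seen, Gstm5), against 6.25%. At an unadjusted p under 0.05, 9 members were then lower, against 4.49%, and 0 higher, against 3.31%. Without control 1 and BMSC-treated 1 the members' median was -0.40 (all genes -0.31), after rescaling -0.36 (all genes -0.16), and with both steps -0.17 (all genes -0.05). These first 2 comparisons share the COPD model libraries, and opposite signs between them are not independent.

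The carboxylesterases had the family medians farthest from 0 in both comparisons, at 1.41 for COPD model against control and -1.85 for BMSC-treated against COPD model. The plot of changes by family shows them at 0.42 and -0.74 after rescaling without control 1 and BMSC-treated 1, on the same sides of 0. The other family medians for COPD model against control were 1.02 for sulfotransferases, 0.999 for P450s, 1.0 for epoxide hydrolases, 0.86 for glutathione transferases, 0.80 for aldehyde dehydrogenases and 0.48 for flavin monooxygenases. With both steps they were 0.25, 0.08, -0.02, -0.002, 0.12 and -0.09 in the same order, so the epoxide hydrolase, glutathione transferase and flavin monooxygenase medians crossed 0. For BMSC-treated against COPD model the medians were -1.24 for sulfotransferases, -1.07 for aldehyde dehydrogenases, -1.03 for glutathione transferases, -0.91 for epoxide hydrolases, -0.73 for P450s and -0.68 for flavin monooxygenases. The flavin monooxygenase median flipped sign after rescaling alone in both comparisons, to -0.05 and 0.07, and after quantile normalization, to -0.10 and 0.14.

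**Figure D2:**
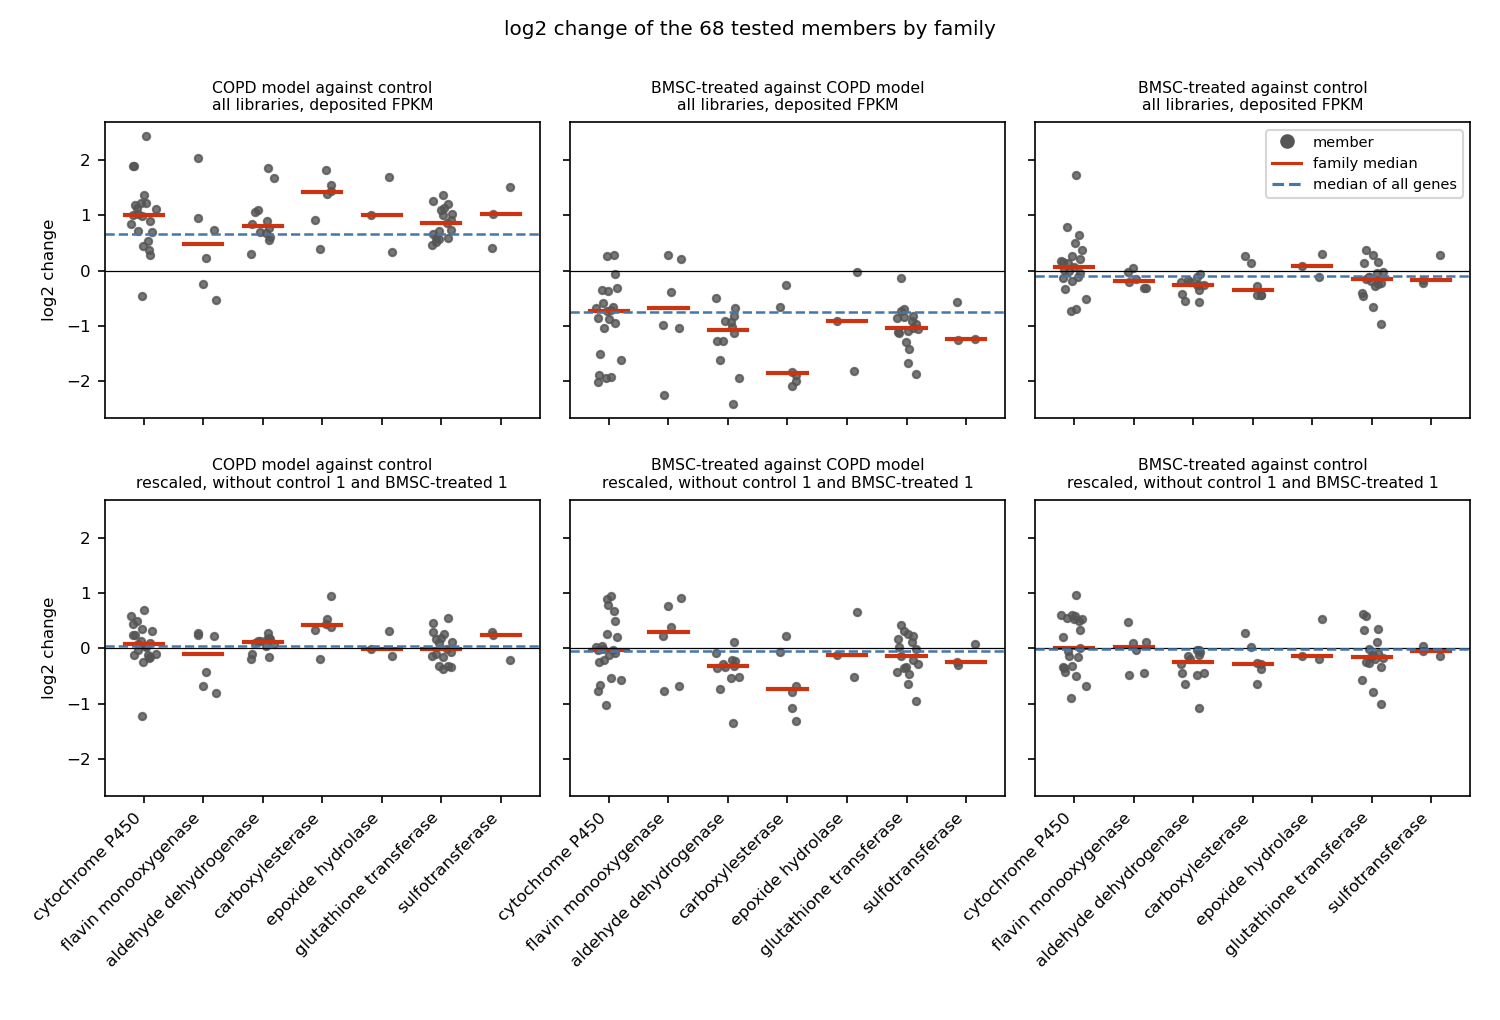
log2 change of each tested member (points) by family in the 3 comparisons, from limma on all libraries and deposited FPKM (top) and on rescaled FPKM without control 1 and BMSC-treated 1 (bottom, a setting chosen after the data were seen); red bars are family medians and the blue dashed line is the median of all 11765 genes. The carboxylesterase medians of 1.41 and -1.85 at the top become 0.42 and -0.74 at the bottom.

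Among carboxylesterases, Ces1g, an esterase known for lipid hydrolysis in liver, stood at 0.713, 1.03 and 2.88 FPKM in control, 3.31, 5.25 and 9.09 FPKM in COPD model and 0.278, 1.51 and 0.698 FPKM in BMSC-treated libraries. The COPD model libraries lay above all libraries of both other groups, and did so after rescaling too. For COPD model against control the log2 change was 1.44 ± 0.54 (SE, limma adjusted p = 0.514), and for BMSC-treated against COPD model it was -1.88 ± 0.54 (limma adjusted p = 0.237). Without control 1 and BMSC-treated 1 the changes were 1.21 and -1.65, and with rescaling as well 0.94 and -1.31. Ces1e, also called egasyn for its binding of beta-glucuronidase in the endoplasmic reticulum, stood at 0.596, 8.86 and 20.5 FPKM in control, 23.2, 30.9 and 18.0 FPKM in COPD model and 1.25, 6.02 and 11.2 FPKM in BMSC-treated libraries. Its COPD model values overlapped control 3 and lay above all BMSC-treated values, with log2 changes of 1.81 ± 0.75 and -2.09 ± 0.75 (SE; limma adjusted p = 0.514 and 0.375). With both steps the Ces1e changes were 0.45 and -1.08.

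Ces1d, a triacylglycerol hydrolase and the most abundant esterase here, stood at 36.4, 137 and 316 FPKM in control, 267, 375 and 397 FPKM in COPD model and 21.7, 130.3 and 216 FPKM in BMSC-treated libraries. All BMSC-treated libraries were below all COPD model libraries, with a log2 change of -1.99 ± 0.79 (SE, limma adjusted p = 0.375), while control 3 overlapped the COPD model (1.54 ± 0.79). Ces1f stood at 1.14, 3.18 and 10.4 FPKM in control, 7.35, 12.01 and 15.4 FPKM in COPD model and 0.238, 2.41 and 8.55 FPKM in BMSC-treated libraries, overlapping in both comparisons. Over the 5 Ces1 genes of chromosome 8 the changes ran from 0.91 to 1.81 and from -2.09 to -0.65, and after rescaling from 0.69 to 1.28 and from -1.34 to -0.26. Ces2g, the remaining carboxylesterase, had changes of 0.38 and -0.25, of which the second was 0.24 after rescaling.

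Among P450s, Cyp4b1, known in lung for activating plant furans to toxic products, stood at 23.2, 113 and 183 FPKM in control, 158, 199.7 and 200.01 FPKM in COPD model and 10.7, 92.1 and 109 FPKM in BMSC-treated libraries. The BMSC-treated libraries lay below the COPD model libraries without overlap (log2 change -1.91 ± 0.81, SE, limma adjusted p = 0.375), and control 3 overlapped the COPD model (1.22 ± 0.81, limma adjusted p = 0.514). Cyp2b10 stood at 3.39, 33.9 and 57.8 FPKM in control, 45.2, 83.0 and 115 FPKM in COPD model and 4.48, 26.1 and 45.7 FPKM in BMSC-treated libraries. Its groups overlapped in both comparisons, with changes of 1.88 ± 0.82 and -2.01 ± 0.82 (SE) that came to 0.44 and -0.77 with both steps. Cyp2s1, a P450 expressed mainly outside the liver, stood at 1.15, 49.8 and 97.4 FPKM in control, 79.0, 95.1 and 69.4 FPKM in COPD model and 2.64, 44.7 and 64.1 FPKM in BMSC-treated libraries. Its changes of 1.89 and -1.88 became 0.20 and -0.58 without control 1 and BMSC-treated 1, the former turning to -0.11 when rescaled as well.

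Cyp2a5, the coumarin hydroxylase that also oxidises nicotine, had the largest change of all members for COPD model against control and the widest spread. It was listed at 0 in control 1 and stood at 97.9 and 60.6 FPKM in the other controls, at 144, 147 and 43.3 FPKM in COPD model libraries and at 8.80, 64.7 and 341 FPKM in BMSC-treated libraries. All groups overlapped. The change of 2.43 ± 0.93 (SE, limma adjusted p = 0.514) became 0.33 without control 1 and BMSC-treated 1. For BMSC-treated against COPD model the change of -0.70 ± 0.93 reversed to 0.61 without these libraries and to 0.20 after rescaling.

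Low P450s of other substrates were also among the named members. Cyp3a13, of the drug-metabolising CYP3A group, was listed at 0 in control 1, reached 0.645 and 2.54 FPKM in the other controls, and stood at 2.32, 4.25 and 4.66 FPKM in COPD model and 0.263, 2.08 and 3.15 FPKM in BMSC-treated libraries. The groups overlapped, and its change against control was 1.36 ± 0.52 (SE, limma adjusted p = 0.514). Cyp39a1, an oxysterol hydroxylase, stood at 1.65, 8.33 and 19.0 FPKM in control, 12.4, 22.4 and 18.7 FPKM in COPD model and 1.08, 6.16 and 6.32 FPKM in BMSC-treated libraries. Every BMSC-treated value lay below every COPD model value, also after rescaling, with a change of -1.94 ± 0.72 (SE, limma adjusted p = 0.375). Without control 1 and BMSC-treated 1 it was -1.34. Over the 21 P450s tested, 0 passed the adjusted threshold in either comparison. At an unadjusted p under 0.05, 5 were higher in the COPD model against control (1 after rescaling), where 6.36% of all genes were (2.76% after rescaling). Against the COPD model, 6 were lower in BMSC-treated lungs (2 after rescaling), where 10.8% of all genes were (4.49% after rescaling).

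Flavin monooxygenases oxygenate nitrogen and sulfur in drugs and amines. Of the 6 tested, 4 had a positive and 2 a negative change for COPD model against control. Fmo2, the main form in the lung of many mammals, stood at 27.1, 60.0 and 64.5 FPKM in control, 57.1, 78.4 and 174 FPKM in COPD model and 13.1, 66.7 and 109.8 FPKM in BMSC-treated libraries, all overlapping. Fmo1 had the lowest change of all members against control: it stood at 33.7, 38.0 and 24.3 FPKM in control, 14.7, 18.7 and 35.04 FPKM in COPD model and 14.5, 42.9 and 24.6 FPKM in BMSC-treated libraries. Its groups overlapped, with changes of -0.54 ± 0.77 and 0.21 ± 0.77 (SE) that were -1.28 and 1.12 after rescaling (limma adjusted p = 0.755 and 0.622).

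Fmo4 was low, at 0.117, 1.009 and 1.12 FPKM in control, 1.37, 1.32 and 2.95 FPKM in COPD model and 0.105, 0.348 and 0.681 FPKM in BMSC-treated libraries. The COPD model libraries were above all others, with changes of 0.73 ± 0.38 and -1.04 ± 0.38 (SE; limma adjusted p = 0.514 and 0.375), and after rescaling only the second comparison kept its groups apart. Fmo6 was low too, at 0.330, 2.75 and 0.678 FPKM in control, 0.769, 1.02 and 0.429 FPKM in COPD model and 0.151, 0.452 and 4.52 FPKM in BMSC-treated libraries. The Fmo6 change of 0.28 ± 0.42 (SE) for BMSC-treated against COPD model, the highest of all members, rested on BMSC-treated 3 and was -0.41 without it.

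Aldh1a7, a cytosolic relative of the retinal-oxidising Aldh1a1, had the lowest change of all members for BMSC-treated against COPD model. It stood at 6.49, 75.4 and 131 FPKM in control, 114, 169 and 176 FPKM in COPD model and 9.36, 40.1 and 53.3 FPKM in BMSC-treated libraries. Every BMSC-treated library lay below every COPD model library, also after rescaling. The change of -2.41 ± 0.83 (SE, limma adjusted p = 0.375) was -1.68 without control 1 and BMSC-treated 1, and -1.34 when rescaled as well. Against control the COPD model overlapped, with a change of 1.84 ± 0.83 that came to 0.28 with both steps.

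Aldh2, the mitochondrial enzyme that clears acetaldehyde, stood at 18.5, 61.1 and 79.9 FPKM in control, 68.1, 82.5 and 94.7 FPKM in COPD model and 14.2, 42.8 and 58.8 FPKM in BMSC-treated libraries. Aldh3b1, which oxidises lipid-derived aldehydes, stood at 3.26, 45.2 and 81.5 FPKM, at 81.0, 96.3 and 65.6 FPKM and at 3.63, 33.0 and 58.1 FPKM in the same order. In both genes the BMSC-treated group lay below the COPD model group without overlap, with changes of -1.26 ± 0.79 and -1.95 ± 0.84 (SE; limma adjusted p = 0.375 for each), and control overlapped the COPD model. Of the 12 aldehyde dehydrogenases tested, 8 had all BMSC-treated libraries below all COPD model libraries, where 31% of all genes did, and 5 did so after rescaling, where 14.2% of all genes did. No aldehyde dehydrogenase had groups apart for COPD model against control, where 23.7% of all genes lay higher and 0.314% lower without overlap.

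Ephx1, the microsomal hydrolase of arene epoxides such as those formed from smoke hydrocarbons, stood at 7.31, 54.6 and 99.6 FPKM in control, 91.4, 118 and 142 FPKM in COPD model and 7.90, 56.4 and 71.6 FPKM in BMSC-treated libraries. The BMSC-treated libraries lay below those of the COPD model, with a change of -1.80 ± 0.82 (SE, limma adjusted p = 0.375), and control 3 overlapped the COPD model (1.69 ± 0.82). With both steps these changes were -0.51 and 0.32. Ephx2, the soluble hydrolase of fatty acid epoxides, averaged 0.829 ± 0.658, 1.196 ± 0.042 and 1.53 ± 1.65 FPKM (SD, n = 3 each) in control, COPD model and BMSC-treated lungs, and Ephx4 averaged 2.71 ± 2.63, 4.93 ± 1.54 and 2.58 ± 2.24 FPKM (SD, n = 3 each). Control and COPD model overlapped in both genes, as did COPD model and BMSC-treated libraries.

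Gstm1, of the mu class, stood at 83.7, 209 and 371 FPKM in control, 229, 283 and 331 FPKM in COPD model and 66.6, 224 and 334 FPKM in BMSC-treated libraries. Its groups overlapped, and its changes of 0.57 ± 0.75 and -0.69 ± 0.75 (SE) reversed to -0.19 and 0.25 after rescaling. Gstp1 stood at 43.5, 107 and 173 FPKM in control, 207, 236 and 175 FPKM in COPD model and 31.9, 94.3 and 146 FPKM in BMSC-treated libraries. The COPD model lay above both other groups, by a small margin over control 3, with changes of 1.12 ± 0.78 and -1.41 ± 0.78 (SE; limma adjusted p = 0.514 and 0.375), and after rescaling it was still apart from BMSC-treated libraries but not from control. Gsto1, an omega-class enzyme that reduces dehydroascorbate and methylated arsenic, stood at 6.87, 158 and 147 FPKM in control, 162, 164 and 118 FPKM in COPD model and 16.0, 70.8 and 271 FPKM in BMSC-treated libraries, all overlapping. Its change of 1.37 ± 0.85 (SE) for COPD model against control was -0.06 without control 1 and BMSC-treated 1.

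Gstk1, the kappa-class enzyme of mitochondria and peroxisomes, stood at 7.55, 24.7 and 44.2 FPKM in control, 43.1, 35.4 and 40.5 FPKM in COPD model and 3.80, 12.3 and 20.2 FPKM in BMSC-treated libraries. The BMSC-treated libraries lay below the COPD model on both scales, with a change of -1.87 ± 0.78 (SE, limma adjusted p = 0.375) and, with both steps, -0.94. Of the 17 glutathione transferases tested, 7 had all COPD model libraries above all control libraries, against 23.7% of all genes, and 2 did after rescaling, against 7.09%. All BMSC-treated libraries lay below the COPD model in 7, against 31% of all genes, and in 5 after rescaling, against 14.2%. No glutathione transferase passed the adjusted threshold in limma in any comparison.

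Sult1a1, which sulfates phenols, stood at 10.2, 28.4 and 27.4 FPKM in control, 33.3, 43.3 and 50.1 FPKM in COPD model and 6.72, 24.9 and 28.3 FPKM in BMSC-treated libraries. The COPD model libraries lay above both other groups, with changes of 1.02 ± 0.78 and -1.25 ± 0.78 (SE; limma adjusted p = 0.514 and 0.375), and after rescaling neither comparison had its groups apart. Sult1d1, known for sulfating catecholamines, stood at 0.532, 32.9 and 24.2 FPKM in control, 28.04, 42.2 and 23.3 FPKM in COPD model and 2.34, 15.3 and 41.3 FPKM in BMSC-treated libraries, overlapping throughout. Sult5a1 averaged 0.949 ± 0.411, 1.54 ± 0.184 and 0.799 ± 0.759 FPKM (SD, n = 3 each).

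**Figure D3:**
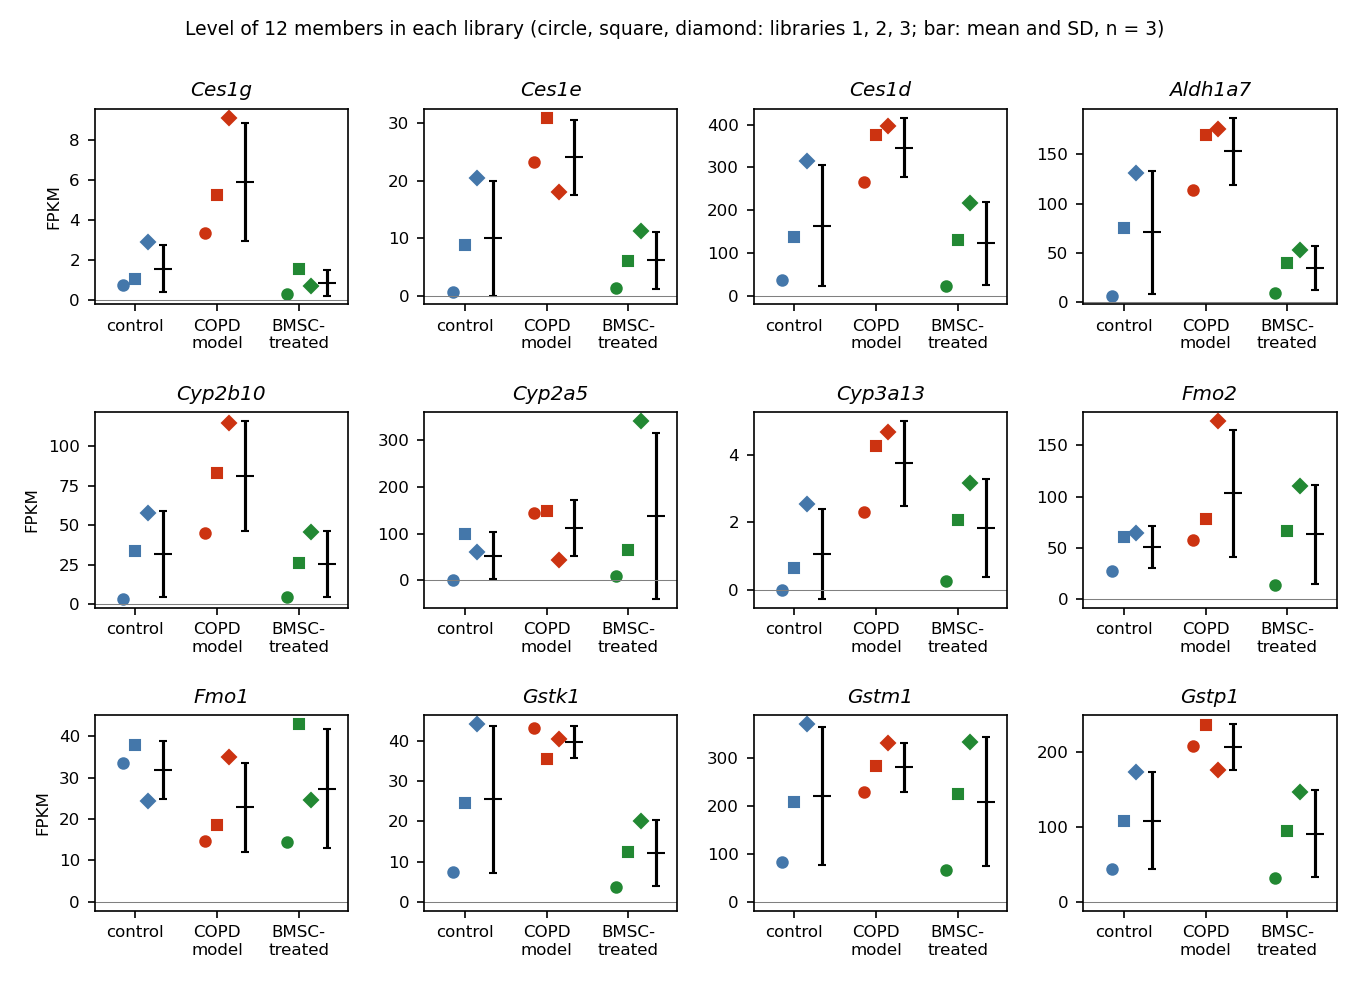
FPKM of 12 members in each library (circle, square and diamond are libraries 1, 2 and 3), with the mean and SD of each group (n = 3) as bars. The COPD model points of Ces1g, at 3.31 to 9.09 FPKM, lie above all control and BMSC-treated points, and Cyp2a5 in BMSC-treated 3, at 341 FPKM, lies above all other points of its panel.

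The comparison of BMSC-treated with control lungs, which asks how far treated model lungs stood from lungs of control mice, gave members' changes spread around 0. Of 68 members tested, 22 were above and 46 below 0, with a median of -0.14 against -0.10 over all genes. No member passed the adjusted threshold in limma, where 0% of all genes did, and 0 reached an unadjusted p under 0.05, against 0.408% of all genes. No member had its groups apart, where 0.178% of all genes lay higher and 0.382% lower. After rescaling 1 member lay higher (Cyp20a1, named after its values were seen) and 1 lower (Gstk1), against 2.84% and 2.69% of all genes, and 2 were higher and 1 lower at an unadjusted p under 0.05, against 1.57% and 0.858%. The median depended on which library was left out, from -0.66 without control 1 to 0.47 without BMSC-treated 1. The highest change was that of Cyp2a5, at 1.73 ± 0.93 (SE, limma adjusted p = 0.9999), and it was -0.37 without control 1. The lowest was that of Gstk1, at -0.96 ± 0.78 (SE, limma adjusted p = 0.9999), with -1.02 without control 1 and BMSC-treated 1 and -0.82 after rescaling, where all BMSC-treated libraries lay below all control libraries. Whether same-numbered libraries of these groups are paired is not settled. Between them Gstk1 differed by -0.83, -0.95 and -1.09. With the number as a block the SE of the Gstk1 change was 0.56 (limma adjusted p = 0.9998). Of the 68 members, 16 were lower and 3 higher in all 3 such pairs, against 21.2% and 5.1% of all genes. Cyp4f18, a leukotriene hydroxylase of myeloid cells, was listed at 0 in control 1 and stood at 1.36 and 1.08 FPKM in control 2 and 3 and at 0.821, 1.19 and 3.72 FPKM in BMSC-treated libraries (0.65 ± 0.43, SE). Cyp27a1, the mitochondrial sterol hydroxylase of bile acid synthesis, stood at 0.162, 0.758 and 3.15 FPKM in control and 1.76, 1.54 and 5.10 FPKM in BMSC-treated libraries (0.78 ± 0.56, SE). Gstm3 had means of 0.895 ± 0.775 and 0.366 ± 0.321 FPKM (SD, n = 3 each) and a change of -0.40 ± 0.37 (SE). These values overlapped between the groups.

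Levels also differed between libraries of 1 group. Over the 58 members at 1 FPKM or more in both control 2 and 3, the level in control 1 had a median of 15.9% of their mean, against 31.6% over all 9962 such genes. Levels under 10% were found in 34.5% of these members and in 13.1% of all genes. For BMSC-treated 1 the median was 14.5% over 59 members, against 20.9% over all genes, and for COPD model 1 it was 76.7% over 63 members, against 77.1%. For P450s the medians were 8.72% in control 1 (16 genes) and 10.1% in BMSC-treated 1 (19 genes). Fmo1 and, named after their values were seen, Gstp3 and Gstm5 were exceptions in control 1, at 108%, 124% and 86.1% of the mean of control 2 and 3. The members' share of the FPKM outside Scgb1a1 and mitochondrial genes was 0.634% in control 1 and 0.690% in BMSC-treated 1, against 1.05% to 1.49% in the other 7 libraries.

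**Figure D4:**
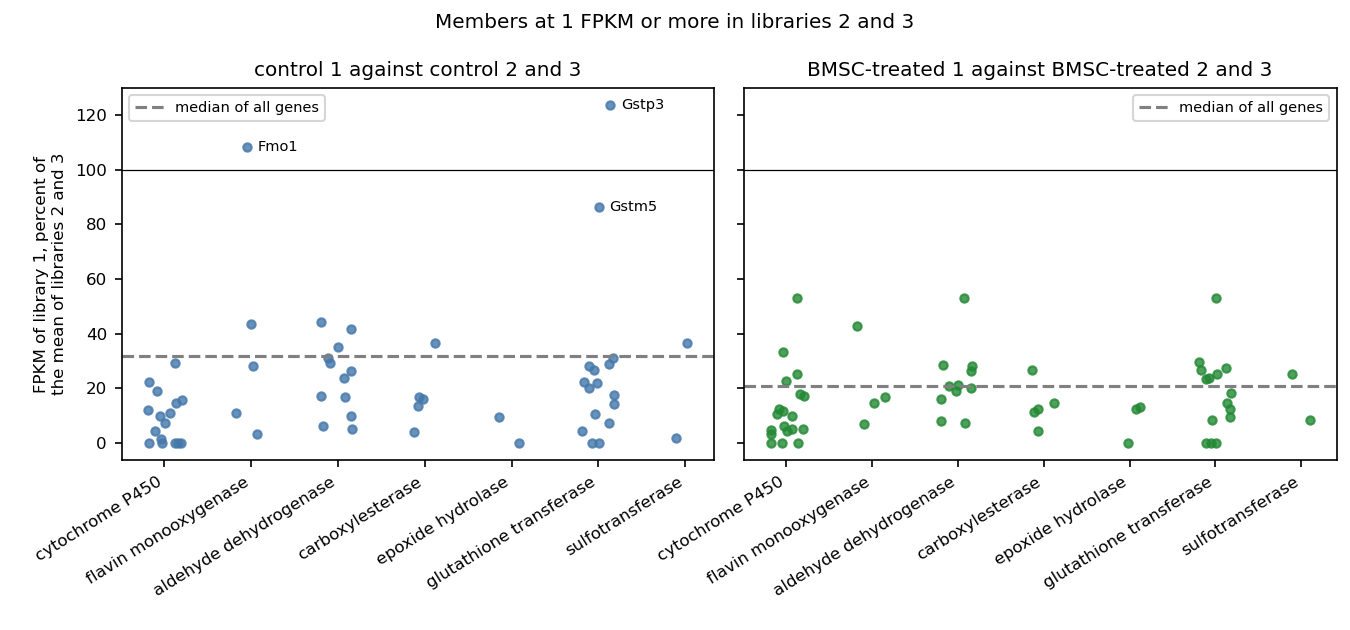
Level of each member in control 1 (left) and BMSC-treated 1 (right) as a percentage of the mean of libraries 2 and 3 of the same group, by family, for members at 1 FPKM or more in both; the dashed line is the median of all such genes and the solid line is 100%. Most points lie below the dashed line, at 31.6% on the left and 20.9% on the right, and Fmo1 and Gstp3 lie above 100% on the left.

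Summed markers were lowest in control 1 and BMSC-treated 1 for 7 of 8 lung cell types, namely the epithelial types, endothelium, alveolar macrophages and fibroblasts. The exception, smooth muscle, was lower in control 2 (70.0 FPKM) than in control 1 (97.2 FPKM). Markers of alveolar type 2 cells stood at 1260.1 and 1077.9 FPKM in control 1 and BMSC-treated 1, against 2997 to 5855 in the other 7 libraries. Those of endothelium stood at 131 and 66.1 FPKM, against 166 to 465, and those of fibroblasts at 226 and 145 FPKM, against 312 to 1053. Neutrophil markers did not follow, at 839, 865 and 137 FPKM in control, 116, 262 and 120 in COPD model and 158, 188 and 278 in BMSC-treated libraries. Squamous epithelium markers were lowest in BMSC-treated 2 (0.636 FPKM). Hepatocyte, adipocyte and cardiac muscle markers were lowest in control 1 and BMSC-treated 1. The 9 ciliated cell markers, all listed, summed to 69.5, 854 and 1509.9 FPKM in control, 1568, 1691 and 1135 FPKM in COPD model and 94.7, 699 and 1306 FPKM in BMSC-treated libraries. The 9 club cell markers, all listed and none at 0, summed to 7174 to 107980 FPKM in control, 165372 to 260877 in the COPD model and 9966 to 40848 in BMSC-treated libraries, most of it Scgb1a1. Single club cell markers did not all follow the sum: Bpifa1 was lowest in COPD model 3, at 4.05 FPKM, against 4.24 in control 1. The median change of the 9 club cell markers for BMSC-treated against COPD model was -2.04 (all genes -0.75), with 1 gene called lower in limma, Scgb1a1. It was -1.28 after rescaling (all genes -0.16, 0 called), -1.17 without control 1 and BMSC-treated 1 (all genes -0.31, Scgb1a1 called lower) and -0.83 with both steps (all genes -0.05, 0 called). The median of the 9 ciliated cell markers was -1.67, and -0.19 with both steps. For COPD model against control, the club cell median was 1.28 (Scgb1a1 called higher) and -0.02 with both steps, and the ciliated cell median was 1.78 and 0.03. Cyp2f2, the naphthalene-oxidising P450 of club cells, stood at 284, 2320.4 and 3312 FPKM in control, 2919.8, 3115 and 3201 FPKM in COPD model and 291, 1658 and 1889.6 FPKM in BMSC-treated libraries. The part of these cell markers in the members' values was not tested.

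Enzymes and regulators that work with the families were read from 6 lists, whose medians stand beside 0.66 and -0.75 over all genes for the first 2 comparisons, 0.14 and -0.16 after rescaling and 0.05 and -0.05 with both steps. For the list of NADPH and cytochrome b5 redox partners, which also holds G6pdx, Pgd, Pgrmc1 and Pgrmc2, the medians over 12 genes tested were 1.04 and -1.28. They were 0.46 and -0.64 after rescaling and 0.13 and -0.41 with both steps, with 0 genes called in limma. Por, the NADPH reductase that serves all microsomal P450s, stood at 3.18, 58.0 and 65.3 FPKM in control, 75.0, 105 and 119 FPKM in COPD model and 5.09, 40.7 and 69.7 FPKM in BMSC-treated libraries, with COPD model above both other groups and changes of 1.96 ± 0.84 and -1.92 ± 0.84 (SE; limma adjusted p = 0.514 and 0.375) that came to 0.34 and -0.53 with both steps. Other phase I oxidoreductases (26 tested, 0 called) had medians of 0.85 and -0.97, of 0.23 and -0.20 after rescaling and of -0.02 and -0.14 with both steps. Cbr2, the lung carbonyl reductase and the most abundant of them, stood at 242, 2141 and 3509.6 FPKM in control, 4324, 4308 and 4023 FPKM in COPD model and 377, 1659.5 and 2662 FPKM in BMSC-treated libraries, with COPD model above both other groups and changes of 1.79 ± 0.61 and -1.83 ± 0.61 (SE; limma adjusted p = 0.514 and 0.375) that came to 0.30 and -0.66 with both steps.

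Other phase II transferases (20 tested) had medians of 1.11 and -1.25, of 0.58 and -0.80 after rescaling and of 0.33 and -0.59 with both steps. In this list 2 genes were called higher in the COPD model against control, Ugt1a5 (2.29 ± 0.49, SE, limma adjusted p = 0.0215) and Ugt1a9 (1.83 ± 0.41, limma adjusted p = 0.0322). For BMSC-treated against COPD model 3 were called lower, Ugt1a5 (-2.28), Ugt1a2 (-1.85) and Ugt1a1 (-2.03), with limma adjusted p of 0.0184, 0.0244 and 0.0282. These glucuronosyltransferases of 1 locus are named after their values were seen, share exons between them, and were listed at 0 in 4 to 6 of the 9 libraries each. Every control library had 0 for Ugt1a9, and every BMSC-treated library had 0 for Ugt1a2, so their fitted changes depend on the pseudocount. COPD model libraries 1 to 3 stood at 0, 7.45 and 7.69 FPKM for Ugt1a1 and at 0, 8.82 and 3.75 FPKM for Ugt1a2. For Ugt1a9 they stood at 8.08, 0 and 3.93 FPKM. In these genes the groups compared thus overlapped at 0. Ugt1a5 was listed at 0 in control 1 and 2 and BMSC-treated 1 and 3, stood at 2.07 FPKM in control 3 and 2.14 in BMSC-treated 2, and stood at 9.12, 6.76 and 3.54 FPKM in the COPD model. None of the 4 was called after rescaling. Gsta4, an alpha-class glutathione transferase for lipid peroxidation products, stood at 13.8, 116 and 196 FPKM in control, 212, 295 and 234 FPKM in COPD model and 11.5, 58.6 and 123 FPKM in BMSC-treated libraries, with COPD model above both other groups. Its changes of 1.81 and -2.44 (limma adjusted p = 0.514 and 0.375) came to 0.38 and -1.18 with both steps. Genes of glutathione and cofactor supply (12 tested, 0 called) had medians of 0.72 and -0.90, which were 0.03 and -0.12 after rescaling and 0.04 and 0.10 with both steps, so that the second turned. Transporters (10 tested, 0 called) had medians of 0.66 and -0.80, which were 0.26 and -0.29 after rescaling and 0.08 and -0.18 with both steps. Regulators (16 tested, 0 called) had medians of 0.86 and -0.98, which were 0.27 and -0.41 after rescaling and -0.0025 and -0.33 with both steps, so that the first turned. Nfe2l2, the regulator acting through antioxidant response elements, stood at 6.56, 20.1 and 37.7 FPKM in control, 33.3, 51.8 and 53.2 FPKM in COPD model and 6.75, 21.7 and 32.2 FPKM in BMSC-treated libraries. Its COPD model values overlapped control 3 and lay above all BMSC-treated values, with changes of 1.33 and -1.36 that came to 0.38 and -0.42 with both steps.

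The 5 members that did not reach the filter of 1 FPKM in at least 3 libraries were Aldh1b1, Cyp2r1, Cyp4f39, Ephx3 and Sult1c2, with no library above 2.43 FPKM. They averaged 0.314, 0.403, 0.540, 0.140 and 0.982 FPKM in control, 0.326, 0.654, 0.770, 0.429 and 0.076 FPKM in the COPD model and 0.827, 0.262, 0.130, 0.560 and 0.281 FPKM in BMSC-treated lungs, in the same order.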

How the data were processed

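Total RNA of mouse lung was extracted with Trizol, selected for poly(A) with oligo(dT) from 1.5 µg of input and made into stranded libraries, per the labels' protocols. The authors deposited 1 table of FPKM for 9 libraries. FastQC, cutadapt, StringTie, Bowtie and the mm10 build are named in the submitters' processing notes. The sources used here give neither their roles and versions nor whether counting used strand. Every listed gene had a mean of at least 0.5003 FPKM in some group, so the table was filtered before deposit. It held 0 value columns that matched no sample. The tsRNA libraries were not used here. The values of 1 member, which entered all counts, sums and medians, are not reported here.

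From these values, log2(FPKM + 1) of genes at 1 FPKM or more in at least 3 of 9 libraries (11765 genes, 68 of 73 members) entered 1 limma model of all 3 groups (limma 3.58.1, R 4.3.3), in which the variance prior followed the mean level. P-values were Benjamini-Hochberg adjusted over all genes tested, with a threshold of 0.05. Summaries and figures used Python 3.11.15, pandas 2.3.3, numpy 2.4.6 and matplotlib 3.10.9. The fit was tested on simulated data in which genes varied independently and the changed genes were of low spread. That test could not check p-values where a whole library shifts, as in control 1 and BMSC-treated 1. FPKM gives no read counts, so depth is unknown, and a value of 0 is only a listing at 0. The 19 alternatives changed the pseudocount, filter, scaling, trend, groups fitted, replicate block or libraries. The genes named were the members of highest mean level in each family, the 5 of smallest p and those of highest and lowest change in each comparison. Members and lists were chosen with earlier results of these data known. Positions and promoters came from RefSeq, GRCm38.p6, where all 73 members matched by symbol.

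Replicate numbers come from the labels. Deviations from group means in same-numbered control and BMSC-treated libraries had correlations of 0.632, 0.194 and 0.497. Control 2 correlated better with BMSC-treated 3 (0.309) than with BMSC-treated 2. Control 1 and BMSC-treated 1 are also the libraries of highest mitochondrial share. Whether the numbers pair the samples in that comparison is thus not settled.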

Additional observations from a re-analysis of the deposited data

How the results depend on the processing

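Of 55 changes of named members, 38 kept their sign under all 19 alternatives. Several of these alternatives could not turn a sign. The filters, the trend, the groups fitted, the replicate block and leaving out a library of the group not compared do not alter a fitted change. Of the same 55 changes, 54 never passed the adjusted threshold. The exception, Ces1g for BMSC-treated against COPD model, had a limma adjusted p of 0.0272 with the replicate number as a block (0.237 without), the 1 member called there. For BMSC-treated against control, where same-numbered libraries had positive correlations, the block called 0 genes. In the other comparisons some same-numbered libraries had negative correlations. In no comparison did every library correlate best with its own number. The causes of the shifts below were not tested, except that fewer libraries enter where some are left out.

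For COPD model against control, 9 of all genes were called. The count was 0 with a pseudocount of 0.1, 1 without the filter on low values and 1 with 1 FPKM in all 9 libraries. It was 0 for rescaled FPKM, quantile normalization and no trend, 2 with only the groups compared, 17 with the replicate block and 3 without control 1 and BMSC-treated 1. Leaving out 1 library gave 1 to 47, the latter without control 3. For BMSC-treated against COPD model, 15 were called. The same settings gave 0, 6, 1, 0, 0 and 0 up to no trend and 34 with the block, and leaving out 1 library gave 0 (without BMSC-treated 1) to 35 (without control 1). For BMSC-treated against control, 0 were called in limma (48 at an unadjusted p under 0.05), 6 without control 1 and BMSC-treated 1, and 0 to 2 with 1 library left out. Rescaling without these libraries, chosen after seeing the data, gave 0, 4 and 3.

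The members' median ran from 0.36 to 1.28, from -1.38 to -0.40 and from -0.66 to 0.47 with 1 library left out.

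Signs reversed as follows for COPD model against control. Rescaled FPKM gave Gstm1 -0.19 and Sult5a1 -0.054. Quantile normalization gave Ephx2 -0.13, Gstm1 -0.012 and Sult5a1 -0.16. Without control 1 and BMSC-treated 1, Gstm1 was at -0.0035 and Gsto1 at -0.061, and with rescaling as well Aldh2 was at -0.10, Cyp2s1 -0.11, Ephx4 -0.015, Ephx2 -0.14, Gstm1 -0.32, Gsto1 -0.38 and Sult1d1 -0.21. With 1 library left out Gstm1 ran from -0.0035 to 1.06 and Gsto1 from -0.061 to 2.11, both lowest without control 1.

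For BMSC-treated against COPD model, rescaled FPKM gave Cyp2a5 0.20, Ephx2 0.13 and Gstm1 0.25, and quantile normalization gave 0.28, 0.36 and 0.00039. Without control 1 and BMSC-treated 1, Cyp2a5 was at 0.61 and Ephx2 at 0.52, and with rescaling as well Cyp2a5 was at 0.94, Ephx2 0.66, Fmo2 0.23, Gstm1 0.32, Gsto1 0.26 and Sult1d1 0.074. With 1 library left out Fmo1 ran from -0.17 to 0.59, Cyp2a5 from -1.96 to 0.61, Ephx2 from -0.53 to 0.52 and Fmo6 from -0.41 to 0.72. For BMSC-treated against control Cyp2a5 ran from -0.37 to 3.04.

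Depth is unknown, which leaves the precision of members near 1 FPKM unknown.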

Other observations

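Sult1c2, too low to be tested, stood at 2.43, 0.262 and 0.255 FPKM in control and 0.115, 0.060 and 0.052 FPKM in COPD model libraries, and at 0.843 FPKM in BMSC-treated 1, with the other 2 BMSC-treated libraries listed at 0. It was highest within each of the 3 groups in library 1, while most other members were low in control 1 and BMSC-treated 1.

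BMSC-treated 3 had the highest level over all 9 libraries of several members, among them Cyp2a5 (341 FPKM), Gsto1 (271 FPKM), Fmo6 (4.52 FPKM) and Cyp2e1 (13.1 FPKM). Cyp2e1, an ethanol-oxidising P450, is named after its values were seen. Cyp4f18 (3.72 FPKM), Ephx2 (3.28 FPKM) and Gstm5 (10.2 FPKM) were also highest there. In the same library adipocyte markers summed to 108 FPKM, against 5.17 to 64.0 in the other 8, and squamous epithelium markers to 15.5 FPKM, against 0.636 to 2.21. Most of that squamous sum came from Krt15 (8.69 FPKM) and Krt5 (5.38 FPKM), and Krt5 was listed at 0 in the other 8 libraries. Sprr1a was higher in control 2 (1.83 FPKM) than in BMSC-treated 3 (1.43 FPKM). The squamous markers Dsg3, Krt13, Krt14, Krt4 and Sprr3 were not listed. Among adipocyte markers Plin1 was highest in control 1 (1.32 FPKM, against 0.753 in BMSC-treated 3), and Lep and Ucp1 were not listed. The other adipocyte markers were highest in BMSC-treated 3. The part of these cell markers in the enzyme values was not tested.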
